A study of Mus musculus with 8 samples.

Results

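The genes described here are 10 enzymes that lengthen or desaturate long fatty acids in the mouse: the elongases Elovl1 to Elovl7, the front-end desaturases Fads1 and Fads2, and the stearoyl-CoA desaturase Scd1. They were chosen by name, as every non-control probe of the array carrying one of these gene names, which gave 12 probes among 41174 and 10 genes among 27962 gene names. The set was proposed with the genotype contrast of these same arrays already known, the higher Elovl3 signal of the mutant included, so the members' differences, and whether they passed the threshold of the fit across the array, are a description and no independent test of the set. Of the 12 probes, 11 were bright enough to enter the fit across the array, and they covered 9 of the 10 genes. The member left out is Elovl4.

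RNA was taken from whole testicular cells of male mice, with 4 wild-type (VRK1+/+) and 4 homozygous mutant (VRK1-/-) samples, each on 1 single-colour Agilent array. Vrk1 encodes a nuclear serine/threonine kinase, and the question was how testis RNA differs when it is disrupted. The labels call the samples biological replicates and do not tie them to animals, so the spread between samples may be partly technical. The sources used here do not give the animals' age or strain, nor what kind of mutation disrupts the gene. Both Vrk1 probes were lower in the mutant, by a log2 difference of -2.26 and -2.06 with no overlap between genotypes.

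Long fatty acids are lengthened in the endoplasmic reticulum by a cycle whose condensing step is carried out by an ELOVL protein, each with its own preference for chain length and unsaturation. Fads2 and Fads1 insert double bonds on the carboxyl side of essential fatty acids, and Elovl5, Elovl2 and Elovl4 lengthen the products to polyunsaturated chains. Elovl1, Elovl3, Elovl6 and Elovl7 act mainly on saturated and monounsaturated chains, and Scd1 makes oleate from stearate. Testis and sperm membranes are rich in long and very long polyunsaturated chains, and loss of Elovl2 or Fads2 in mice is known to impair sperm formation.

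Each member was read by 60-base probes, most by a single one, so the values are those of the stretch of transcript the probe covers. The first 30 bases of the probes on which the results turn are printed 5′ to 3′ as the array files give them. Elovl3 is shown for its large difference, Elovl5 and Elovl7 because each had a pair of probes, and Scd1 because its family has several similar genes.
Elovl3: ggcctggtaggcgcttAATAAAtgtctttt
Elovl5, brighter probe: ctcaatacaaaaattataacatttgatagt
Elovl5, dimmer probe: ctgtagtgctactttgacatacacttcctt
Elovl7, brighter probe: tcctgatccattactctgtctccacattca
Elovl7, dimmer probe: atgatttgtctcaacggttaatgaacgctt
Scd1: actcctgggctaagtatctgacagtctcac
The capitals mark AATAAA, the canonical polyadenylation signal, which starts at base 17 of the Elovl3 probe and was searched in the printed orientation only. It was in 4.78% of all 41174 probes and in 1 of the 12 member probes. The longest run that a member probe shared with a probe of any other gene was 12 to 15 bases, and with a probe of another member 6 to 9 bases. Transcript sequences were not compared, so cross-hybridisation between similar transcripts was not tested.

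Signals are given as log2 values relative to the 75th percentile of the same array's signal, so 0 is that percentile, and levels of different probes are not compared. A probe counts as well above background where the scanner software called it so. The 75th percentile itself was 680 to 790 units on the wild-type and 928 to 1120 on the mutant arrays, and 73.2% to 77.5% and 83.3% to 86.5% of features were well above background. All 4 arrays of a genotype lay on 1 slide, a different one for each genotype, so the genotype and its slide cannot be told apart. In whole tissue, fewer cells of a type and less RNA per cell cannot be told apart either. The number of arrays limits the precision.

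Of the 9 member genes in the fit, 5 passed an adjusted p of 0.05 as higher in the mutant (Elovl3, Elovl5, Elovl6, Elovl7 and Scd1), 0 passed as lower in limma (0 also at an unadjusted p under 0.05), and 4 did not pass (Elovl1, Elovl2, Fads1 and Fads2). Over the whole array 21.2% of the 33718 probes tested were called higher and 10.8% lower, and nothing is read from the members' count since this contrast was known when they were chosen. Elovl3 entered the fit only through the mutant arrays, where it is bright, so nothing is read from its place among the 5. Leaving it aside, 4 of 8 genes were called. A gene with a pair of probes was counted by its brighter one. The median log2 difference was 0.79 over the 9 genes and 0.05 over all probes. Groups did not overlap for 4 of the 9 genes (Elovl3, Elovl5, Elovl6 and Elovl7), against 35.3% of all probes. Elovl3 again entered only through the mutant arrays, and nothing is read from this count either.

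**Figure D1:**
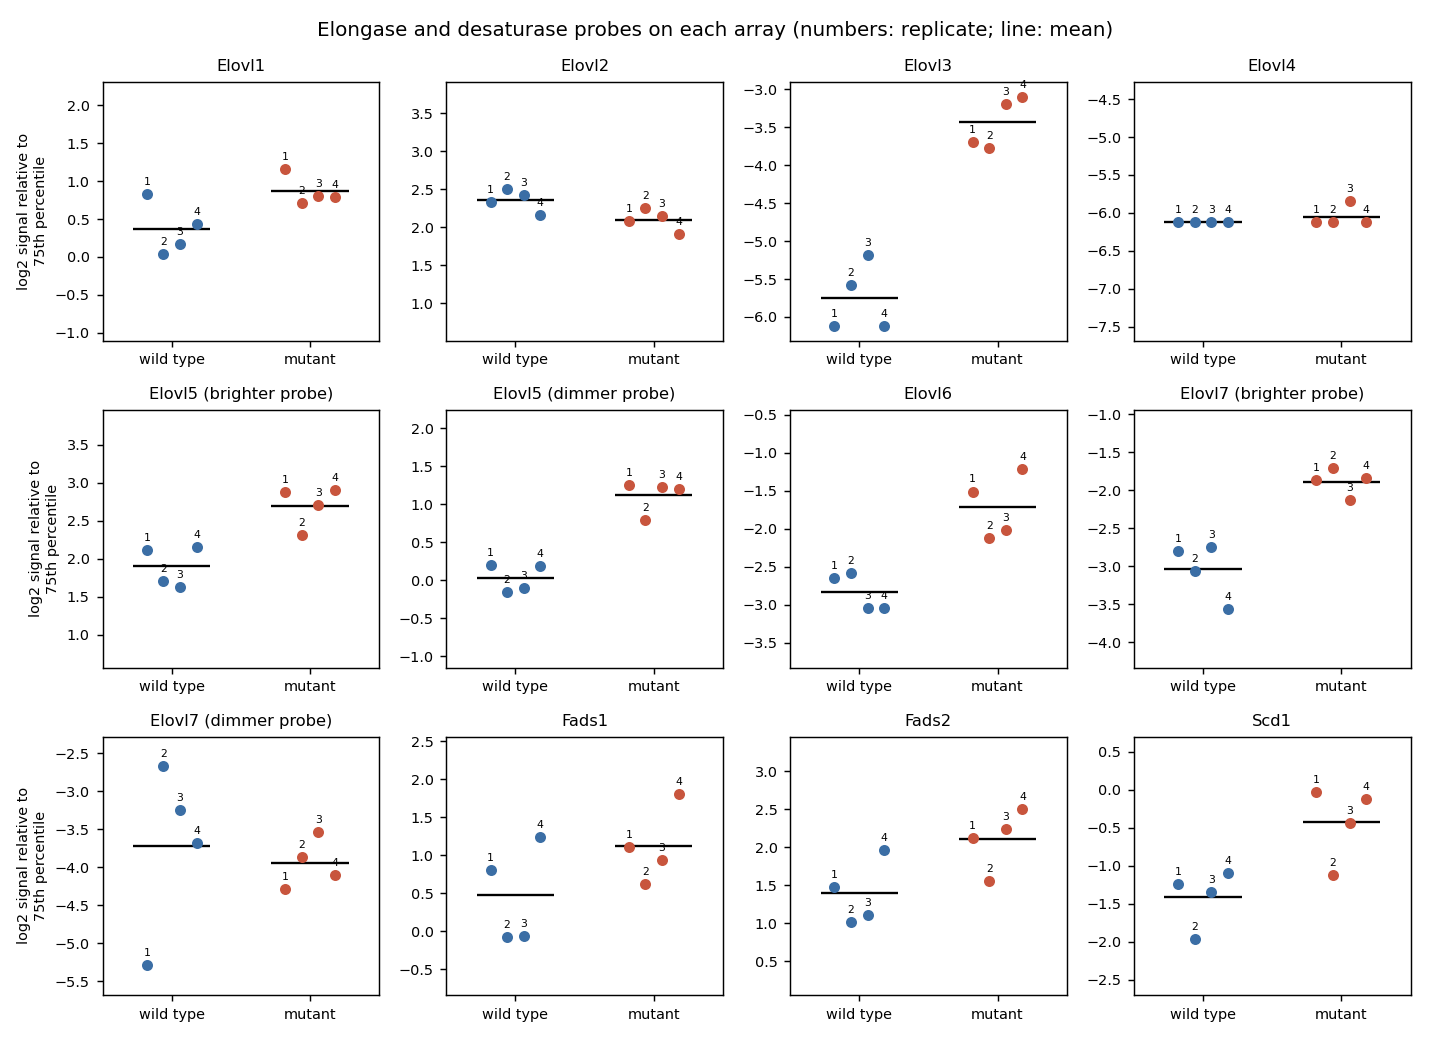
Log2 signal over the 75th percentile of the same array (vertical axis) of each of the 12 member probes on the 4 wild-type (blue) and 4 mutant (red) arrays, with replicate numbers and a line at each group mean. Elovl3, Elovl6, both Elovl5 probes and the brighter Elovl7 probe show no overlap, while Elovl4 lies at or near the floor of the scale on every array.

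Among the elongases of polyunsaturated chains, Elovl5 was higher in the mutant and Elovl2 was not. Elovl5 acts on chains of intermediate length in both the omega-3 and omega-6 series. Its brighter probe (mm7 chr9:78025742-78025801, plus strand) read 2.12, 1.71, 1.63 and 2.16 in wild-type replicates 1 to 4 and 2.88, 2.31, 2.71 and 2.90 in the mutants. Every mutant array lay above every wild-type array, and mutant 2 was the lowest of its group. The difference was 0.79 (SE 0.19, 95% interval 0.37 to 1.22), 1.73-fold. The dimmer Elovl5 probe (mm7 chr9:78025137-78025196) read 0.20, -0.15, -0.10 and 0.19 against 1.25, 0.80, 1.23 and 1.20. Again no arrays overlapped and mutant 2 was lowest. Here the difference was 1.08 (SE 0.16, 95% interval 0.73 to 1.44), 2.12-fold, so both Elovl5 probes passed in the same direction.

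Elovl2 makes the longer polyunsaturated chains from which docosahexaenoate and the very long chains of testis lipids derive. Its probe (mm7 chr13:40622319-40622378, minus strand) read 2.33, 2.51, 2.43 and 2.16 in wild type and 2.08, 2.25, 2.15 and 1.91 in the mutant. The genotypes overlapped through wild-type 4 and mutant 2, and the lowest array of each genotype was replicate 4. The difference was -0.26 (SE 0.14, 95% interval -0.57 to 0.05), the only negative one among the brightest probes of the 9 genes, and it passed when arrays were scaled by their median (-0.48) or weighted by quality (-0.30). Within an array, the log2 ratio of the brighter Elovl5 probe to the Elovl2 probe, which no scaling between arrays touches, was -0.21, -0.80, -0.80 and 0.00 in wild type and 0.80, 0.06, 0.56 and 0.99 in the mutant. It differed by 1.05 with no overlap, so Elovl5 and Elovl2 changed unequally. The ratio's own size has no meaning, since the probes differ.

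Elovl4, which makes very long chains, could not be measured. Its probe (mm7 chr9:83877284-83877343, minus strand) was not well above background on any of the 8 arrays, with raw signals of 1.87 to 16.9 units. On the log2 scale 7 arrays stood at the floor of -6.12 and mutant 3 at -5.84, so no fold is given.

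Of the elongases of saturated and monounsaturated chains, Elovl3 differed most on this scale. Elovl3 is best known from brown fat, skin glands and liver. The raw signals of its probe (mm7 chr19:46031906-46031965, plus strand) were 5.08, 14.3, 19.8 and 10.5 units in wild type and 74.6, 67.8, 106 and 131 in the mutant. It was well above background on none of the wild-type and on all 4 mutant arrays, and no arrays overlapped. The wild-type mean log2 signal was -5.75 ± 0.46, at background level, and the mutant mean was -3.44 ± 0.34 (SD, n = 4 each). On this scale Elovl3 was 4.97-fold higher in the mutant. That fold sets the mutant mean against, per wild-type array, the higher of the probe's own signal and the floor of the scale. It is a lower bound only with respect to the floor, not to the spread between arrays or to the scaling. The confidence interval of the fitted log2 difference was 1.75 to 2.87, and over the alternatives tried the difference ran from 0.40 to 2.58. With normexp background correction, which adds an offset of 50 units, the fitted difference shrank from 2.31 to 0.40 and no longer passed.

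Elovl6, which extends palmitate to stearate, read -2.65, -2.58, -3.05 and -3.04 in wild type and -1.51, -2.12, -2.02 and -1.21 in the mutant (mm7 chr3:129477684-129477743, plus strand). The genotypes did not overlap, and mutants 1 and 4 were highest. The difference was 1.12 (SE 0.23, 95% interval 0.61 to 1.62), 2.17-fold, and 0.49, no longer passing, with normexp.

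Elovl7, an elongase of saturated very long chains, gave opposite signs on its probes. The brighter probe (mm7 chr13:105413408-105413467, plus strand) read -2.80, -3.06, -2.74 and -3.56 in wild type and -1.86, -1.71, -2.13 and -1.84 in the mutant. All mutant arrays lay above all wild-type arrays. That difference was 1.16 (SE 0.20, 95% interval 0.72 to 1.59), 2.23-fold, and 0.47, no longer passing, with normexp. The dimmer probe (mm7 chr13:105412670-105412729), nearby on the same strand, read -5.29, -2.67, -3.24 and -3.68 against -4.28, -3.86, -3.54 and -4.10. Wild-type arrays 1 and 2 were the lowest and the highest of all 8, so the mutants lay inside the wild-type range. Its difference was -0.23 (SE 0.47, 95% interval -1.28 to 0.83), changed to 0.12 without wild-type 2, and passed as lower with normexp (-0.57). The call of Elovl7 thus rests on 1 of its 2 probes.

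Elovl1, which makes saturated very long chains for sphingolipids, read 0.83, 0.04, 0.17 and 0.43 in wild type and 1.16, 0.71, 0.80 and 0.79 in the mutant (mm7 chr4:117808859-117808918, plus strand). Replicate 1 was the highest array of each genotype, and wild-type 1 lay among the mutants. The difference was 0.50 (SE 0.19, 95% interval 0.07 to 0.93) and did not pass. Without wild-type 1 it was 0.65 and passed, as it did when arrays were weighted by quality (0.65).

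Both front-end desaturases had a positive difference that did not pass. Fads2, the rate-limiting desaturase that starts the polyunsaturated route, read 1.48, 1.01, 1.11 and 1.96 in wild type and 2.12, 1.56, 2.24 and 2.50 in the mutant. Wild-type 4 lay above mutant 2, and replicate 4 was the highest of each genotype. The difference was 0.72 (SE 0.25, 95% interval 0.15 to 1.29). It passed without wild-type 4 (0.91) or mutant 2 (0.90), and also with quantile normalization (0.86), cyclic loess (0.90) and normexp (0.83). Weighting arrays by quality gave 0.96, which passed too. The array files place the ends of this 60-base probe at mm7 chr19:9744385-9744815 on the minus strand, a span of 431 bases.

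Fads1, which acts one step later, read 0.81, -0.08, -0.07 and 1.24 against 1.11, 0.62, 0.94 and 1.80 (mm7 chr19:9876165-9876224, plus strand). Wild-type 1 and 4 lay within the mutant range, and replicate 4 was again the highest of each genotype. The difference was 0.64 (SE 0.34, 95% interval -0.12 to 1.41), and it passed when arrays were weighted by quality (0.92). The log2 ratio of Fads1 to Fads2 within an array differed between genotypes by -0.08, with overlap. On the same replicate 4 arrays, the summed signal of 5 peritubular myoid markers, in units of the 75th percentile, was highest too, at 25.6 in wild type and 21.8 in the mutant against 13 to 15.2 on the other arrays. Replicate 4 was also the highest of each genotype for the endothelial sum (3.87 in wild type, 4.58 in the mutant) and the white adipocyte sum (15.8 and 11.7). The part of any of these cell types in the Fads values was not tested.

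Scd1 read -1.24, -1.97, -1.35 and -1.10 in wild type and -0.03, -1.12, -0.44 and -0.12 in the mutant (mm7 chr19:44288770-44288829, minus strand). Only mutant 2 fell into the wild-type range, just below wild-type 4. The difference was 0.99 (SE 0.27, 95% interval 0.38 to 1.59), 1.98-fold, and passed. It did not pass without wild-type 2 (0.80), mutant 1 (0.86), mutant 3 (0.99) or mutant 4 (0.89). Nor did it pass with median scaling (0.77), normexp (0.60) or no filter (0.99). The call of Scd1 was thus the least stable of the 5 over the alternatives tried.

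**Figure D2:**
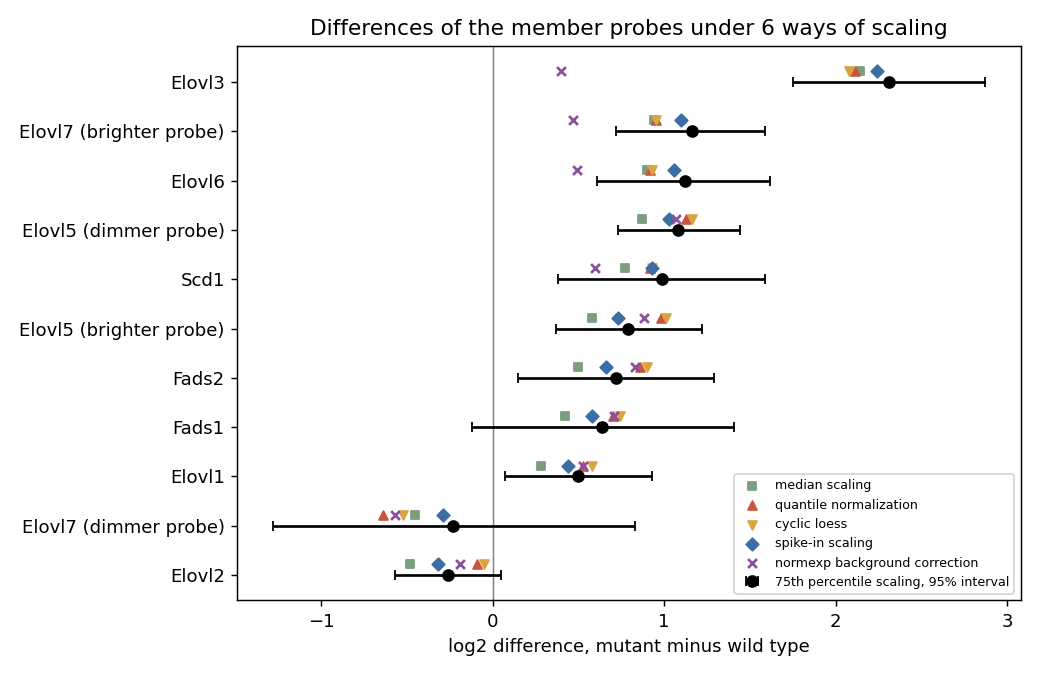
Log2 difference, mutant minus wild type (horizontal axis), of the 11 member probes in the fit, with the 95% interval of the 75th percentile scaling (black) and the values under 5 other scalings or background corrections (coloured). The sign of each probe is the same under all 6, and normexp moves Elovl3, Elovl6 and the brighter Elovl7 probe most.

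Scaling sets part of the picture, since the arrays of the mutant were brighter. Of all calls 66.2% were higher in the mutant with the 75th percentile, 63.4% with cyclic loess and 63.1% with spike-in scaling. The share was 54.7% with quantile normalization, 40.3% with normexp and 33.9% with median scaling. In this order the median difference of all probes was 0.05, -0.02, -0.01, -0.07, -0.23 and -0.17. The members' median was 0.79, 0.93, 0.73, 0.92, 0.53 and 0.58 in the same order, above that of all probes each time. Nothing is read from this, since the contrast was known when the members were chosen.

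Genes that act beside the members moved in both directions. Over 7 lists 77 genes were tested, of which 30 were higher, 7 lower and 40 did not pass, with a median difference of 0.33. That is 39.0% higher and 9.09% lower, where 21.2% and 10.8% of all probes tested were, and the counts of each list below stand beside the same background. These lists too were drawn up with earlier results of these arrays known. Of the 30 higher calls 11 held under all 5 other scalings and background corrections (among them Scd2, Scd3, Mbtps1, Mlxipl, Acsl4, Slc27a3, Cers5, Cers6, Scp2 and Abcd3), and of the 7 lower calls none did. With median scaling the counts became 16 higher and 16 lower. When each array was left out in turn, those 11 and Mbtps2, Slc27a6, Ehhadh and Abcd2 kept their call each time, and no lower call did. The higher calls dropped to 17 without wild-type 3, mutant 1 or mutant 3 and to 18 without mutant 4. The lower calls dropped to 2 without wild-type 2, wild-type 3, mutant 1 or mutant 4, and to 0 without mutant 3.

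**Figure D3:**
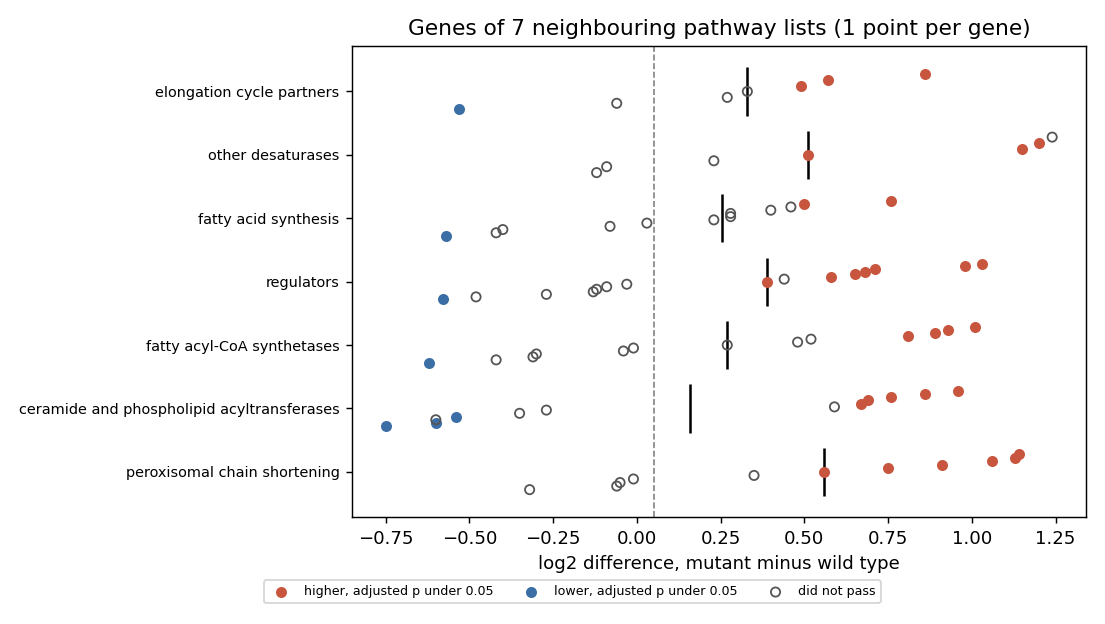
Log2 difference, mutant minus wild type (horizontal axis), of the 77 genes of the 7 lists, 1 point per gene, filled where the adjusted p was under 0.05, with black bars at list medians and a dashed line at the median of all probes (0.05). The peroxisomal and other desaturase lists have the highest medians, 0.56 and 0.51, and the acyltransferases hold 3 of the 7 lower calls.

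In the list of other desaturases, 3 of 7 genes (42.9%) rose and 0 fell in limma (4 and 0 at an unadjusted p under 0.05). Scd2, the stearoyl-CoA desaturase of brain and other non-hepatic tissues, rose by 1.20 (limma with Benjamini-Hochberg adjustment, adjusted p = 0.00452), and the wild-type range of 2.83 to 3.35 did not overlap that of the mutant, 3.75 to 4.65. Scd3, the skin form, rose by 1.15 (adjusted p = 0.00485), and both held under all 5 other scalings. Degs1, which makes ceramide from dihydroceramide, rose by 0.51 (adjusted p = 0.0194) but not with median scaling (0.29) or normexp. Scd4 had a difference of 1.24 that did not pass (adjusted p = 0.0507), with wild-type arrays from -6.12 to -3.79. Fads3 and Fads6 had differences of -0.09 and -0.12 that did not pass. The second Fads3 probe gave 0.72 (adjusted p = 0.17), so the sign for Fads3 differs between its probes. The probes of Scd3, Scd2, Scd4 and Scd1 lie in that order on mm7 chromosome 19 between 44136086 and 44288829, next to one another in a known gene cluster. In the Fads3, Fads2 and Fads1 cluster, from 9738276 to 9876224 on the same chromosome, none of the 3 genes passed.

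Of the 7 partners that complete the elongation cycle, 3 rose (42.9%) and 1 fell. Under the 5 other scalings and background corrections, Hsd17b12 kept its higher call in 1 (spike-in scaling), and Hacd4 and Tecrl in 0. The ketoacyl reductase Hsd17b12 rose by 0.86 (adjusted p = 0.035), and its second probe gave 0.79 (adjusted p = 0.0503). The dehydratase Hacd4 rose by 0.49 (adjusted p = 0.0186), although its second probe gave 0.08 (adjusted p = 0.75). The reductase-like Tecrl was 1.49-fold higher (log2 difference 0.57, confidence interval 0.18 to 0.97) and turned to -0.38 with normexp. It was well above background on none of the wild-type arrays and entered the fit only through the mutant ones. Its place among the 3 higher calls is thus set by the filter, and 2 of the 3 do not depend on the filter in this way. Hacd1 fell by 0.53 on its brighter probe (adjusted p = 0.0452) but its dimmer probe read 1.59 higher (adjusted p = 0.000722), so it has no settled direction. Hacd2 (-0.06 on its brighter probe) and Hacd3 (0.27) did not pass, although the second Hacd2 probe gave 0.62 (adjusted p = 0.0165).

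Of the 12 genes of fatty acid synthesis, 2 rose (16.7%, near the share of all probes) and 1 fell. The citrate lyase Acly rose by 0.50 (adjusted p = 0.0409) and the lipogenic nuclear protein Thrsp by 0.76 (adjusted p = 0.0483), and neither passed under any of the 5 other scalings. The mitochondrial synthase Oxsm fell by 0.57 (adjusted p = 0.0194), with -0.12 on its second probe. Me1 (0.03) and Mecr (-0.08) did not pass, nor did Fasn (0.28, adjusted p = 0.257, 1 mutant spot left out) and Acaca (0.28, adjusted p = 0.226), the central enzymes of the route. The other Acaca probes gave 0.14 and 0.36, which did not pass, and -0.46, which passed as lower (adjusted p = 0.0266).

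Of the 15 regulators, 7 rose (46.7%) and 1 fell. The site-2 protease Mbtps2, which releases SREBP proteins from the membrane, rose by 1.03 (adjusted p = 0.0104) with 1.08 on its second probe, but gave -0.14 with normexp and was well above background on only 2 wild-type arrays. The site-1 protease Mbtps1 rose by 0.68 (adjusted p = 0.0136), with -0.07 and 0.80 on its other probes, neither past the threshold. The carbohydrate-response factor Mlxipl rose by 0.98 (adjusted p = 0.0162). Srebf1, a transcription factor whose known targets include Scd1, Elovl6 and Fads2, rose by 0.71 (adjusted p = 0.0199) with no overlap, but not with median scaling (0.49). Srebf2 rose by 0.58 on 1 probe (adjusted p = 0.0289), while the remaining 3 probes, at -0.03, -0.15 and -0.25, did not pass. The SREBP escort Scap rose by 0.65 (adjusted p = 0.0219). Its retention factor Insig1 had -0.48 (adjusted p = 0.0513), with 0.33 on its second probe (adjusted p = 0.0834). Rxra fell by 0.58 (adjusted p = 0.0441), with 0.58 on its second probe (adjusted p = 0.0629). Ppargc1a (-0.03) and Insig2 (-0.09) did not pass.

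Peroxisomes shorten very long chains and carry out the last step of docosahexaenoate synthesis. Of 11 such genes 6 rose (54.5%) and 0 fell in limma, the same counts as at an unadjusted p under 0.05. The transporter Abcd3 rose by 1.06 (adjusted p = 0.0039), with 0.99 and 1.01 on its other probes, both called. Abcd2 rose by 1.14 (adjusted p = 0.00585), the bifunctional enzyme Ehhadh by 1.13 (adjusted p = 0.00699) and the thiolase and sterol carrier Scp2 by 0.91 (adjusted p = 0.00944). Acox2 (-0.05) did not pass. Abcd2 and Ehhadh were no longer called with normexp, at 0.01 and 0.18.

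Acyl-CoA synthetases activate fatty acids for these routes, and 4 of 13 rose (30.8%) while 1 fell. Slc27a6 rose by 1.01 (adjusted p = 0.00632), Slc27a3 by 0.93 (adjusted p = 0.0156) and the arachidonate-preferring Acsl4 by 0.81 (adjusted p = 0.0147) with 0.72 on its second probe. Acsbg1 rose by 0.89 (adjusted p = 0.0256), and Acsl6 fell by 0.62 (adjusted p = 0.0356), with -0.38, -0.26 and 0.07 on its other probes. Acsl1 (-0.04) and Slc27a2 (-0.01) did not pass.

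Of the 12 measured acyltransferases that place the finished chains into ceramides, phospholipids and triglycerides, 5 rose (41.7%) and 3 fell (25.0%). The ceramide synthases Cers5, Cers6 and Cers2 rose by 0.69, 0.96 and 0.76 (adjusted p = 0.00623, 0.013 and 0.0192), and Lpcat2 by 0.86 (adjusted p = 0.0187). Dgat2, which makes triglycerides, fell by 0.75 (adjusted p = 0.02), Lpcat3 by 0.54 (adjusted p = 0.0292) and Agpat1 by 0.60 (adjusted p = 0.0325), the last with 0.00 on its second probe. All 3 were no longer called with quantile normalization or cyclic loess. Agpat2 (-0.27) and Agpat3 (-0.35) did not pass.

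Markers of several cell types moved with genotype on the same arrays. The marker counts here and below stand beside 21.2% of all probes called higher and 10.8% called lower. Testis markers were present: the summed scaled signal, in units of the 75th percentile, was 1620 to 2170 for 10 spermatid genes in wild type and 1320 to 1820 in the mutant. Of these 10 genes 3 were lower and 0 higher. The spermatocyte sum was 459 to 503 and 320 to 413, with 5 of 8 genes lower. Of the Sertoli markers 11 of 15 were higher (49 to 129 against 119 to 227), of the Leydig markers 4 of 7 (75.9 to 134 against 146 to 245) and of the macrophage markers 8 of 9 (8.81 to 9.88 against 12.2 to 33.5). Of 7 spermatogonium markers 3 were higher and 1 lower, of 5 endothelial markers 2 were higher, and of the 5 myoid markers 0 passed, adjusted or not. Their part in the members' differences was not tested.

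Markers of fat were looked at because Elovl3, Elovl6 and Scd1 are abundant in it. Of 9 white adipocyte markers 0 passed in either direction in limma, also at an unadjusted p under 0.05 (sums of 6.38 to 15.8 in wild type and 5.47 to 11.7 in the mutant). Of 6 brown adipocyte markers Cidea and Cox7a1 were higher and Cpt1b lower, with sums of 12.8 to 13.9 and 14.6 to 17.3. Ucp1, the defining brown fat gene, had a mean log2 signal of -5.34 ± 0.65 on the wild-type arrays and -5.12 ± 0.05 on those of the mutant (SD, n = 4 each).

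Epididymal markers stood apart on mutants 1 and 4, with sums of 33.6 and 20.9 against 2.23 and 1.63 on mutants 2 and 3 and 0.907 to 1.29 in wild type, and 3 of the 7 tested were higher. Lcn8 was not above background on any array. Mutants 1 and 4 were also the highest for Elovl6, Scd1, Fads1 and the brighter Elovl5 probe. The part of epididymal tissue in any member's difference was not tested, and mutants 2 and 3 too lay above wild type in that sum. Without both arrays, the fit had 2 mutants and only 1 member gene passed by its brighter probe, Elovl3 at 2.27. Elovl5 then differed by 0.60 and 0.98 on its probes, of which the dimmer passed. Elovl7 differed by 1.12, Elovl6 by 0.76, Scd1 by 0.63, Fads2 by 0.51, Elovl1 by 0.39, Fads1 by 0.31 and Elovl2 by -0.16, and of the pathway genes 1, Slc27a6 at 1.15, passed.

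**Figure D4:**
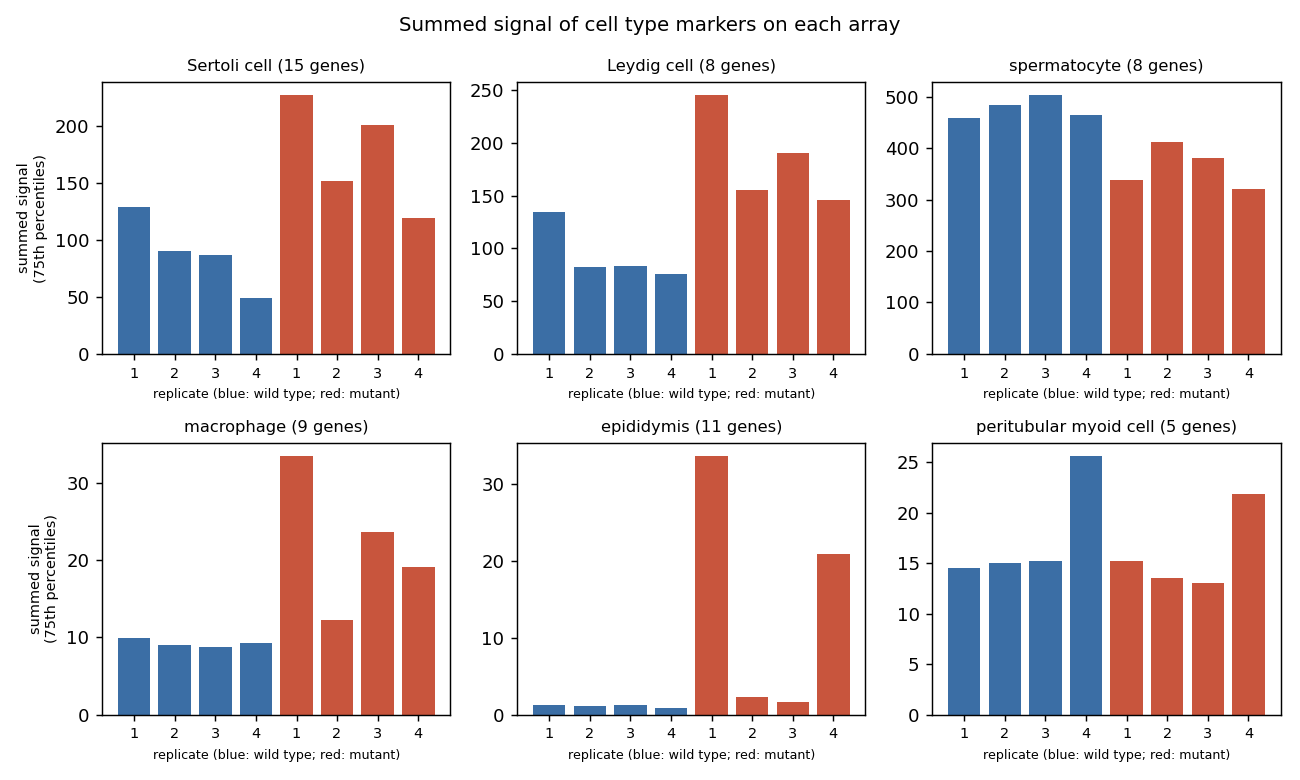
Summed signal of marker lists (vertical axis, in units of the array's 75th percentile, bars from 0) on each of the 4 wild-type (blue) and 4 mutant (red) arrays. Leydig, macrophage, spermatocyte and epididymal sums separate the genotypes. The epididymal sum stands out on mutants 1 and 4, and the myoid sum on replicate 4 of both genotypes.

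Over the 8 arrays, the genes whose signal followed Elovl3 most closely among named genes were Olfr267 (Pearson r = 0.993), Kif5c (r = 0.992) and Reck (r = 0.988). These are the highest of all tested probes with a RefSeq symbol, the arrays share the genotype and slide contrast, and the values are a description. Elovl3 and Olfr267 both stood at the floor on wild-type 1 and 4 and were well above background on no wild-type array, so floored values set part of their correlation.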

How the data were processed

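Genotype and replicate number were taken from the labels. Per the labels' protocols, 0.5 ug of Trizol-extracted total RNA was labelled with Cy3, and the submitters' processing notes name Agilent Feature Extraction 9.5.3.1. The deposited intensity values are background-subtracted processed signals, per the file headers, not scaled between arrays. The deposited value table holds the same signals on a linear scale, uncentred, with column medians of 97.8 to 206. Here each array's signals were expressed relative to the 75th percentile of its non-control features. Values under 0.0144 were set to it, since intensities could be negative, before log2 was taken. Repeat spots were averaged and outlier spots left out. Probes that 4 or more arrays showed well above background, with at least 3 values per genotype, were tested with limma 3.58.1 under R 4.3.3 (two-sided moderated test of lmFit and eBayes, genotype as the only term) and Benjamini-Hochberg adjustment over all 33718 probes at a threshold of 0.05. A gene was called by its brightest tested probe.

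The members and gene lists were chosen with earlier results of these data known. All members and Vrk1 were named, with up to 4 called genes per list by smallest p, the 2 uncalled genes with the largest p, and the 3 genes most correlated with Elovl3. Fasn, Acaca, Insig1, Srebf2, Scap, Rxra, Scd4, Acsl6, Dgat2, Lpcat3 and Agpat1 were named after their values were seen. Of the listed genes, 2 are counted but not reported by name here. No probe carried the names Cers1 or Cers3, which were not analysed here. Coordinates (mm7) come from the array files, and the place of a probe in exon or UTR was not analysed here. The fit was tested on simulated data. Alternatives covered scaling, background correction, the filter, the floor, array weights, the replicate number, the probe that represents a gene, and arrays left out.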

Additional observations from a re-analysis of the deposited data

Results flagged for a closer look

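The dimmer Elovl5 probe stood out for 1 array of the mutant. Mutant 2 read 0.80 where the other mutants read 1.20 to 1.25, a gap of 0.884 of the group's whole range, above Dixon's 95% critical value for 4 samples. The lowest mutant array still lay above the highest wild-type array, at 0.20. Chance gives about 1 such group in 20, and 22 groups were looked at.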

How the results depend on the processing

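At the settings reported, 7160 probes were called higher and 3655 lower, 5 member genes higher and 0 lower, and 30 pathway genes higher and 7 lower. Median scaling gave 4491 and 8768 probes, 1 member lower and 16 pathway genes in each direction. Quantile normalization gave 4313 probes higher and 1 pathway gene lower, cyclic loess 0 pathway genes lower, and normexp 2092 probes higher, 2 members higher, and 17 pathway genes higher and 4 lower. Array weights gave 7940 probes lower, 8 members higher and 1 lower, and 12 pathway genes lower. Without mutants 1 and 4, 1320 probes were higher and 220 lower, 1 member and 1 pathway gene were higher, and 0 pathway genes lower. Leaving out 1 array at a time gave 4782 to 7358 probes higher and 1666 to 4411 lower, 4 to 6 members higher and 0 lower, and 17 to 29 pathway genes higher and 0 to 7 lower. Probes called lower numbered 1798, 1688, 1767, 1666 and 1980 without wild-type 2, wild-type 3, mutant 1, mutant 3 and mutant 4, in that order. With the replicate number as a block, 5913 probes were lower, 8 members higher (Elovl1, Fads1 and Fads2 besides the 5) and 11 pathway genes lower. Same-numbered arrays correlated at 0.28, 0.23, 0.09 and 0.61 in their deviations, and 3 of 4 wild-type arrays correlated best with their own number. Some structure by replicate number is thus shared, unevenly. The main fit has no block because nothing in the labels pairs the numbers. Counts for the settings not given here stayed within 1.5 times.

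Signs turned for Hacd2 (0.13 with quantile normalization, 0.16 with cyclic loess, 0.01 with normexp), with normexp for Tecrl (-0.38), Scd4 (-0.04), Mbtps2 (-0.14) and Lpcat1 (-0.11), for the dimmer Elovl7 probe without wild-type 2 (-0.75 to 0.12 over single arrays left out) and without mutants 1 and 4 (0.02), for Fads3 without wild-type 2 (-0.21 to 0.03), and for Fads6 without mutant 3 (-0.22 to 0.04). The cause was not tested. Of 208 member values under alternatives, 176 kept sign and side of the threshold, 14 lost the call, 16 gained it and 2 turned sign. Probes near background, Elovl3 and Elovl4 first, are limited by signal, and each genotype has 4 arrays.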
